A study of Homo sapiens with 12 samples.

Results

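The histone gene cluster of chromosome 6 was examined in the chromatin accessibility data of HCT116 cells as all regions of the count table that overlapped chr6:26000000-27950000 (hg38), and 59 of the 30170 regions did so. ATAC-seq uses a transposase that inserts sequencing adapters into open DNA, so that the reads counted in a region measure how accessible it is. HCT116 is an established human colorectal carcinoma cell line. It was studied as EV (empty vector) cells, as EHF cells, made by transfecting an EHF expression plasmid and selecting geneticin-resistant clones, as CDX1 cells, made by retroviral transduction and sorting for the co-expressed GFP, and as EHF+CDX1 cells, made by transfecting the CDX1 cells with EHF and again selecting clones, with 3 libraries per group and 12 in all. EHF is an ETS-family and CDX1 a caudal homeobox transcription factor, both expressed from vectors. All 4 groups share the HCT116 background. EV, EHF and EHF+CDX1 cells were selected as clones, and CDX1 cells differ from EV cells in vector and selection as well. A difference between groups can therefore not be told apart from a difference of the selected clones or of how the lines were made. The labels do not say that the 3 libraries of a group came from separate cultures, so that the p-values measure the spread between these libraries.

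Replication-dependent histone genes encode the core histones H2A, H2B, H3 and H4 that wrap DNA into nucleosomes and the linker histone H1 that binds DNA between them. They are short genes without introns, are transcribed mainly in S phase in a nuclear compartment called the histone locus body, and often lie in divergent H2A and H2B pairs that share a promoter. The interval also holds many tRNA genes, which RNA polymerase III transcribes from promoters inside the gene. Butyrophilin genes and zinc finger genes are among the other neighbours.

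The GENCODE annotation places the starts of 53 histone genes in the interval, and 35 of them had a region within 1 kb of the start. There were 31 such histone start regions, of which 18 lay over a start and 27 within 100 bp of one. A further 11 regions lay within 100 bp of a tRNA gene, of 100 annotated there, and 17 lay elsewhere. The tRNA class was formed after the values had been seen. Of the genes encoding H2A, 10 of 11 had a start region, and of those encoding H2B, 13 of 14. Fewer genes had one among H1 (2 of 6), H3 (4 of 10) and H4 (6 of 12). For H2BC6 the region (chr6:26171877-26172027) lay beside a GENCODE start 11702 bp from the RefSeq start used below. No region was listed within 1 kb of the starts of H3C3, H3C4, H3C6, H3C7, H3C8 and H3C11. This says only that no peak was called there from uniquely mapped reads at this depth. How far unique mapping bears on the tallies by family was not tested. The testis-specific H1-6 lies in the interval without a region, and the testis-specific H2AC1 and H2BC1 lie outside it and had none. The starts fell into 3 groups separated by more than 200 kb, with 32 genes at the telomeric end of the interval (20 with a region), 5 in the middle (4 with a region) and 16 at the centromeric end (11 with a region). All 10 divergent pairs, whose starts were 170 to 319 bp apart, had a region that both genes shared. Among these, H2BC17 counts both with H2AC17 (240 bp) and with H3C12 (319 bp), over the same region.

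The sequences before the starts show what the members share. RefSeq (GRCh38.p14) gave the 250 bases before the start of 48 of the 53 genes, and both strands were searched for TATAAA of the TATA box, for CCAAT of the CCAAT box, for ATTTGCAT of the octamer bound by POU-domain factors, for AGGAAGT or CGGAAGT of the core that ETS factors bind, and for TTTATG or TTTATT of the core that caudal factors bind. The CCAAT box was found in 85.4% of the histone windows and in 32.0% of 34943 windows of all genes, and the TATA box in 66.7% and 10.8%. The octamer was found in 39.6% and 1.63%, and all 19 histone windows with it belonged to H2A (8 of 10) or H2B genes (11 of 14). The CDX core stood in 25 of the 48 windows (52.1%, against 22.6% of all windows), and the ETS core in 0 of 48 (against 12.2%). The histone windows were poorer in G and C, with a median of 41.2% against 58%, so that more matches to A- and T-rich letters come with the base composition. A match is a match of letters and no evidence of binding, and matches of different motifs can overlap. Of these windows, 6 are printed 5′ to 3′ with every match of the 5 motifs in capitals. The first 3 belong to the most accessible H1, H2A and H4 genes, H3C12, the most accessible H3 gene, being without an entry, and H2BC11 is read from the opposite strand of the H2AC11 stretch.
H1-2, chr6:26056471-26056720, minus strand: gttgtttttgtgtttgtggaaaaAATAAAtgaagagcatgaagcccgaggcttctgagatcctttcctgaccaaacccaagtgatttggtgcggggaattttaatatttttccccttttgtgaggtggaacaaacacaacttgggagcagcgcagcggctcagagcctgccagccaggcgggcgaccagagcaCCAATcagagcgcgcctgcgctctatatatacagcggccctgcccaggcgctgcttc
H2AC11, chr6:27132793-27133042, plus strand: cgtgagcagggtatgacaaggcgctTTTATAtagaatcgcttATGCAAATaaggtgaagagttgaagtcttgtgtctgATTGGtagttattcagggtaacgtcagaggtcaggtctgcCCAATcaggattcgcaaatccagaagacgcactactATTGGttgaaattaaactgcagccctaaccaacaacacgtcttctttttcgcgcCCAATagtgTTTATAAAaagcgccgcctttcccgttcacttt
H4C4, chr6:26189113-26189362, minus strand: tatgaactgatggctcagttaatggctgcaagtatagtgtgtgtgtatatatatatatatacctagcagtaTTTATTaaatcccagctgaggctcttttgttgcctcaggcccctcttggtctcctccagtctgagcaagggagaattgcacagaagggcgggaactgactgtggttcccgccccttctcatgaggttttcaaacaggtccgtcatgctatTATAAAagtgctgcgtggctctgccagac
The next 3 belong to the histone starts that passed the test in 1 of the comparisons.
H2BC3, chr6:26043714-26043963, minus strand: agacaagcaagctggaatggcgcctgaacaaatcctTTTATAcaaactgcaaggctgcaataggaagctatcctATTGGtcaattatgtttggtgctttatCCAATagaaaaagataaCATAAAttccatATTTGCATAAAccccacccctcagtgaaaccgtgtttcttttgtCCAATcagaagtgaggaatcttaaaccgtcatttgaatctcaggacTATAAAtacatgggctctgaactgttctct
H2AC8, chr6:26216671-26216920, plus strand: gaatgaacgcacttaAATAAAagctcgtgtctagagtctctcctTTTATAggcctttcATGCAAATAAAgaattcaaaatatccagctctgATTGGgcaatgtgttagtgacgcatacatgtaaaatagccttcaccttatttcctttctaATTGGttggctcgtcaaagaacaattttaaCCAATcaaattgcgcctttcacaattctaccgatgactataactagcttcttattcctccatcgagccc
H2AC14, chr6:27814778-27815027, minus strand: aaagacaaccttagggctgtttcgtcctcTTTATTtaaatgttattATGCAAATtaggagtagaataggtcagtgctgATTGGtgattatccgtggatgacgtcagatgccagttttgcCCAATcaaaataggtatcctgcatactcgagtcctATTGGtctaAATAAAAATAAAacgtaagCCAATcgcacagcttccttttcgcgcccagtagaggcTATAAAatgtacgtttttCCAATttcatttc
The H4C4 window held no CCAAT box and H4 windows held it in 3 of 10, whereas all 8 H3, 10 H2A, 14 H2B and 6 H1 windows held it.
The last stretch is the region beside the methionine tRNA gene TRM-CAT4-2, which passed the test in the opposite direction. It overlapped the gene (73 bases, from 26743263 to 26743335) over the first bases of the region, printed here in capitals on the plus strand.
TRM-CAT4-2, chr6:26743315-26743596: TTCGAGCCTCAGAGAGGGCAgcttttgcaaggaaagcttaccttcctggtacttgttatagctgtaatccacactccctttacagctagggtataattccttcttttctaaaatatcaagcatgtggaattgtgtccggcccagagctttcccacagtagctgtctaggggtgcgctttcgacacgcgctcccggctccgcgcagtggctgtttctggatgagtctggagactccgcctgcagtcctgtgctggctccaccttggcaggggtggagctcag

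Before the members are compared, some facts of the libraries bear on every value. The table held 567366 to 2443334 counts per library. Of these, 14.5% to 73.9% fell in 194 regions that match mitochondrial DNA. The vectors carried the factors' own exons into the libraries. Regions over EHF exons held 543188 to 1536042 counts per EHF library and 91907 to 759842 per EHF+CDX1 library, against 30 to 100 in the other libraries. Regions over CDX1 exons held at least 77147 counts in every CDX1 and EHF+CDX1 library and at most 104 in the others, so the group labels held for all 12 libraries. The remaining regions held 147970 to 458071 counts in 11 libraries and 912112 in EHF+CDX1 replicate 2, which stands apart in depth. Of the epithelial markers, 4 of 5 genes had a region, with 17 to 333 counts per library over 11 regions, and CDH1 had none. Of the markers of other cell types 1 of 9 genes had a region, with 1 to 21 counts per library. Values below are CPM (reads per 1000000 of the TMM-scaled library total), with SD over n = 3 libraries per group, and changes are log2 fold changes with their standard error (SE) from edgeR's quasi-likelihood test, fitted on all regions and adjusted by Benjamini-Hochberg over the 30154 that were tested. All 59 members were among these.

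The histone starts were read at low counts. The 31 regions together held 94 to 173 counts per EV library, 235 to 296 per EHF library, 111 to 246 per CDX1 library and 302 to 930 per EHF+CDX1 library. Their summed level was 144 ± 25.4 CPM for EV, 185 ± 56.6 for EHF, 142 ± 30.1 for CDX1 and 215 ± 39 for EHF+CDX1. The 3 EHF+CDX1 libraries (179 to 257 CPM) lay above the 3 EV libraries (119.5 to 170) and the 3 CDX1 libraries (119 to 176), and overlapped the EHF libraries (120.3 to 221). The gap to CDX1 rests on 4 starts that were at 3 counts or fewer in every EV, EHF and CDX1 library. Without them, a choice made after seeing the data, the EHF+CDX1 libraries (169 to 240.04 CPM) overlapped the CDX1 libraries (118 to 171) and lay just above the EV libraries (117 to 168). As log2 ratios of the sums, EHF+CDX1 stood 0.58 above EV, 0.60 above CDX1 and 0.21 above EHF. The log2 ratio to EV was 0.37 for EHF and -0.017 for CDX1, both within the pooled SD of the log2 sums (0.39 and 0.28). Without EHF replicate 2, the EHF library with the lowest sum, the EHF+CDX1 ratio to EHF was -0.019, so its sign rests on that library. These ratios depend on the scaling. With library totals alone, which include the vector-borne counts of EHF and CDX1, the log2 ratio to EV was -0.35 for EHF and -0.72 for CDX1.

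**Figure D1:**
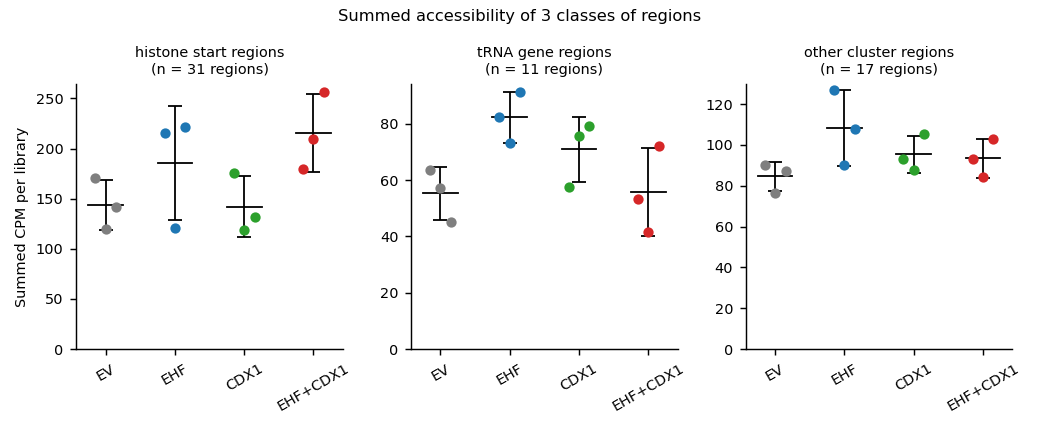
Summed TMM-scaled CPM per library (points), with the mean and SD over 3 libraries (lines and bars), for the histone start regions, the tRNA gene regions and the other cluster regions in EV, EHF, CDX1 and EHF+CDX1. At the histone starts all 3 EHF+CDX1 libraries (179 to 257 CPM) lie above the 3 EV libraries, and at the tRNA genes the EHF libraries (73.1 to 91.4 CPM) lie above the EHF+CDX1 libraries (41.5 to 72.3).

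The order of the histone genes by level was led by a few divergent pairs. The pair H2AC11 and H2BC11 was highest, with 18.1 CPM over all libraries in a region of 496 bp (chr6:27132717-27133213), and its level per kb was 36.4 CPM. In this region EV gave 13, 20 and 10 counts, EHF 16, 35 and 32, CDX1 23, 32 and 11, and EHF+CDX1 35, 67 and 35, which gave 14.4 ± 0.616, 19.4 ± 8.56, 16.9 ± 4.72 and 21.7 ± 7.01 CPM. The ranges of the 4 groups overlapped, apart from EV and EHF+CDX1. After it came H3C12 (16.8 CPM over 2 regions), H2BC4 (14.2), H2BC15 with H2AC15 (13.3), H2BC12 with H2AC12 (12.2) and H2AC17 with H2BC17 (9.97). Shared regions count for each gene in this order. The H3C12 level includes the 9.97 CPM of the H2AC17 and H2BC17 region, and the H2BC4 level the 8.54 CPM of the H2AC6 region. Per kb the region shared by H2AC6 and H2BC4 was highest among histone starts, with 49.9 CPM per kb. H2BC3 (1.75 CPM), H2AC8 with H2BC8 (1.54), H1-5 (1.32) and H2BC10 (0.814) were lowest. In EV cells the histone starts had a median of 27.0 CPM per kb against 31.1 for the 13947 regions within 1 kb of any gene start, and a median GC content of 50% against 65.8%.

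**Figure D2:**
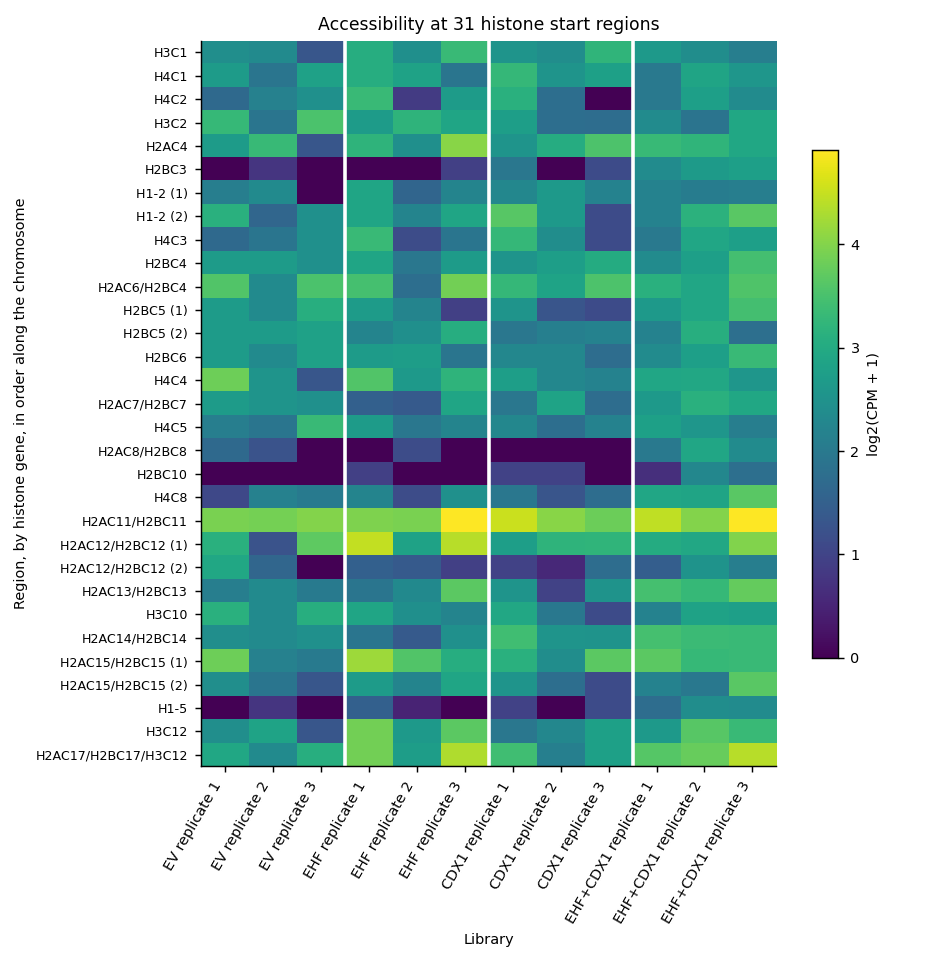
log2(CPM + 1), on the colour scale, at the 31 histone start regions (rows, in order along the chromosome and named by the histone genes within 1 kb) in the 12 libraries (columns, white lines between groups). H2AC11/H2BC11 is bright in every library, whereas H2BC3, H2AC8/H2BC8, H2BC10 and H1-5 are dark in EV, EHF and CDX1 and lighter in EHF+CDX1.

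For the EHF and CDX1 cells against EV, no member passed the test. In EHF against EV, 0 of 59 members passed at an adjusted p under 0.05 (0.00995% of all tested regions did), and 6 had an unadjusted p under 0.05, all higher in EHF (4.96% of all regions). DESeq2 also called 0, with 3 at an unadjusted p under 0.05. The histone starts had a median log2 fold change of 0.22, with 19 of 31 above 0, against 0.015 over all regions and 0.13 over all start regions. With library totals alone this median was -0.45. The histone starts with the smallest p were those of H2AC12 with H2BC12, H2AC17 with H2BC17, and H3C12. At the H2AC12 and H2BC12 start (chr6:27146853-27147073) the counts were 7, 2 and 8 in EV and 23, 15 and 22 in EHF. This came to 7.03 ± 5.35 and 15.7 ± 8.37 CPM, with overlapping libraries, and the log2 fold change of 1.27 (SE 0.51) did not pass (adjusted p = 0.92). H3C12, which encodes a core histone H3, had 4.04 ± 2.38 CPM in EV and 10.3 ± 4.44 in EHF at its start (chr6:27890779-27891029), with a fitted log2 change of 1.10 ± 0.55 (SE, adjusted p = 0.96). In CDX1 against EV, 0 members passed (0% of all regions) and 1 had an unadjusted p under 0.05, lower in CDX1 (3.81% of all regions). DESeq2 called 0, with 0 at an unadjusted p under 0.05. The histone starts had a median log2 fold change of 0.026, with 17 of 31 above 0, and of -0.74 with library totals alone. The member with that p was the H2AC8 and H2BC8 start, at or under 3 counts in every library of both groups. H2BC5, an H2B gene, had 5.72 ± 1.70 CPM in EV and 2.48 ± 2.02 in CDX1 at one of its regions (chr6:26157925-26158075), with a fitted log2 change of -1.19 ± 0.70 (SE, adjusted p = 1). H3C2 had 7.36 ± 4.07 and 3.52 ± 1.95 CPM (chr6:26032162-26032312), and these libraries overlapped.

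In EHF+CDX1 against EV, 0 of 59 members passed (2.57% of all tested regions did), and 8 had an unadjusted p under 0.05, all higher in EHF+CDX1, which is 13.6% of the members against 19% of all regions. DESeq2 also called 0, with 6 at an unadjusted p under 0.05. Of the 8, 7 were histone starts and 1 a tRNA gene region. The median log2 fold change of the histone starts was 0.45, with 27 of 31 (87.1%) above 0. The 31 include 4 starts, described below, that reached the filter mainly in EHF+CDX1. Over all regions the median was 0.18 with 57.6% above 0, and over all start regions 0.17 with 59.8% above 0. The start region shared by H2AC17, H2BC17 and H3C12 (chr6:27893193-27893462) had 6, 6 and 5 counts in EV and 19, 56 and 24 in EHF+CDX1. Its levels were 6.59, 4.14 and 7.52 CPM in EV and 11.3, 12.6 and 19.9 in EHF+CDX1, without overlap, and the log2 fold change of 1.29 (SE 0.47) did not pass (adjusted p = 0.11). At the H2AC13 and H2BC13 start (chr6:27807992-27808145) the counts were 3, 6 and 2 in EV and 17, 39 and 15 in EHF+CDX1. The levels were 3.48 ± 0.592 and 10.5 ± 1.85 CPM, again without overlap, with a fitted log2 change of 1.48 ± 0.57 (SE, adjusted p = 0.13). H4C8, one of the genes for histone H4, had 1, 5 and 2 counts in EV and 11, 28 and 14 in EHF+CDX1 (chr6:26285550-26285700), that is 2.52 ± 1.25 and 8.16 ± 3.01 CPM without overlap, and a fitted log2 change of 1.56 ± 0.66 (SE, adjusted p = 0.17).

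Some histone starts were near 0 in EV, EHF and CDX1 cells. The starts of H2BC3, of H2AC8 with H2BC8, of H2BC10 and of H1-5 had 3 counts or fewer in every EV, every EHF and every CDX1 library, while no histone start was that low in all 3 EHF+CDX1 libraries. This floor is a different level in each group. A count of 3 stood for 2.07 to 4.51 CPM in EV libraries and for 0.677 to 2.49 CPM in EHF+CDX1 libraries. H2BC10 exceeded 3 counts only in the deepest library. A region enters the table through a peak in any library, so these 4 had to be higher somewhere, and their number is a description. They are 12.9% of the histone starts, and 12.6% of all start regions and 24.5% of all regions were at 3 counts or fewer in every EV library. These background shares look at EV alone. The share of all regions that were low in EV, EHF and CDX1 alike is not given here. H2BC3, H2BC10 and H1-5 reached the filter of 3 CPM, counted on library totals, in EHF+CDX1 alone, and the start of H2AC8 with H2BC8 otherwise only in EV, at 2 counts. The p-values of these 4 starts are therefore given as a description. EHF+CDX1 replicate 2, the deepest library, gave 17 to 29 counts at each. H2BC3, a gene for core histone H2B (chr6:26043677-26043827, over its start), had 0, 1 and 0 counts for EV, 0, 0 and 1 for EHF, 3, 0 and 1 for CDX1, and 7, 24 and 7 for EHF+CDX1. As levels these were 0.230 ± 0.399, 0.305 ± 0.528, 1.36 ± 1.45 and 5.13 ± 0.866 CPM, and each EHF+CDX1 library (4.16, 5.42 and 5.81) stood above all others. The EHF+CDX1 mean was 1.56-fold the level of 3 counts per library in EV (adjusted p = 0.086). It was 1.95-fold that level in CDX1 (adjusted p = 0.25). Such ratios leave out the spread between libraries and are no lower limits. H1-5, which encodes a linker histone, had 0, 1 and 0 counts in EV and 4, 19 and 5 in EHF+CDX1 (chr6:27867487-27867637). Its EHF+CDX1 mean was 1.10-fold the level of 3 counts in EV (adjusted p = 0.18). H2BC10 had 0 counts in all 3 EV libraries and 1, 17 and 3 in EHF+CDX1 (chr6:26272799-26272949), and gets no fold since the level of 3 counts was not exceeded on average.

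Of the members compared between EHF+CDX1 and EHF, 3 of 59 members (5.08%) passed the test, against 4.35% of all tested regions, and 10 (16.9%) had an unadjusted p under 0.05 against 19.6%. The 3 were the H2BC3 start and the shared start of H2AC14 and H2BC14, both higher in EHF+CDX1, and the TRM-CAT4-2 region, which was lower. The EHF+CDX1 mean of H2BC3 was 2.29-fold the level of 3 counts in EHF (adjusted p = 0.031). This is a description for a region that was tested only because it was higher in EHF+CDX1. The H2AC14 and H2BC14 start (chr6:27814802-27814952) had 3, 4 and 5 counts in EHF and 17, 41 and 11 in EHF+CDX1. EV had 4, 6 and 3 and CDX1 had 10, 10 and 4. In CPM the libraries were 2.74, 1.63 and 4.57 in EHF and 10.1, 9.25 and 9.14 in EHF+CDX1, and the groups did not overlap. The log2 fold change was 1.78 (SE 0.54, adjusted p = 0.037). The same pair had 4.35 ± 0.186 CPM in EV and 6.39 ± 2.80 in CDX1, and its log2 fold change against EV of 1.12 (SE 0.54) did not pass (adjusted p = 0.24).

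The calls for this pair need care, because 150 bases of its region match the H2AC13 and H2BC13 region at 98.0% identity. Only uniquely mapped reads were counted, and how reads were divided between the pairs was not tested. In all, 7 of the 31 histone start regions had a stretch of at least 80 bp that matched elsewhere at 90% or more, and without these 7 the median log2 fold change against EHF was 0.29 (15 of 24 above 0). Over all 31 it was 0.24 (22 above 0), against 0.09 over all regions and 0.0043 over all start regions. Without EHF replicate 2 the median was -0.01 with 15 of 31 above 0, and none of the 3 calls was made. Without EHF+CDX1 replicate 2 none was made either, and with library totals alone or with DESeq2 0 passed (DESeq2 gave 6 members an unadjusted p under 0.05). Without EHF replicate 1 or EHF+CDX1 replicate 1 only the TRM-CAT4-2 region passed.

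Between EHF+CDX1 and CDX1, 1 of 59 members passed (1.69%, against 2.6% of all tested regions), and 10 had an unadjusted p under 0.05 (16.9%, against 17.5%), 9 of them higher in EHF+CDX1. The one that passed was the start shared by H2AC8 and H2BC8 (chr6:26216768-26216918), a divergent pair with starts 233 bp apart. It had 0, 0 and 0 counts in CDX1, 2, 2 and 0 in EV, 0, 3 and 0 in EHF, and 5, 29 and 5 in EHF+CDX1. In CPM the EHF+CDX1 libraries (2.97, 6.55 and 4.15) stood above the highest EV library (2.20). The EHF+CDX1 mean was 1.73-fold the level of 3 counts in CDX1 (adjusted p = 0.020), which is a description for a region let in by so few counts elsewhere. This call was lost on leaving out CDX1 replicate 1, CDX1 replicate 2, CDX1 replicate 3 or EHF+CDX1 replicate 2, and with DESeq2 or limma-trend. That mean was 2.04-fold the level of 3 counts in EHF (adjusted p = 0.095). H4C8 had 3, 3 and 2 counts in CDX1, and its EHF+CDX1 mean was 3.11-fold the level of 3 counts there. It did not pass (adjusted p = 0.097). The H2AC13 and H2BC13 start had 5, 2 and 4 counts in CDX1, with 3.50 ± 2.20 against 10.5 ± 1.85 CPM without overlap, and a fitted log2 change of 1.75 ± 0.56 (SE, adjusted p = 0.067). Over the 31 histone starts the median log2 fold change was 0.60, with 27 above 0, against 0.13 over all regions and 0.09 over all start regions. The starts at or under 3 counts were also given their ratio to the level of 3 counts in place of the fitted change. The medians of the 31 were then 0.43 against EV, 0.15 against EHF and 0.46 against CDX1.

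**Figure D3:**
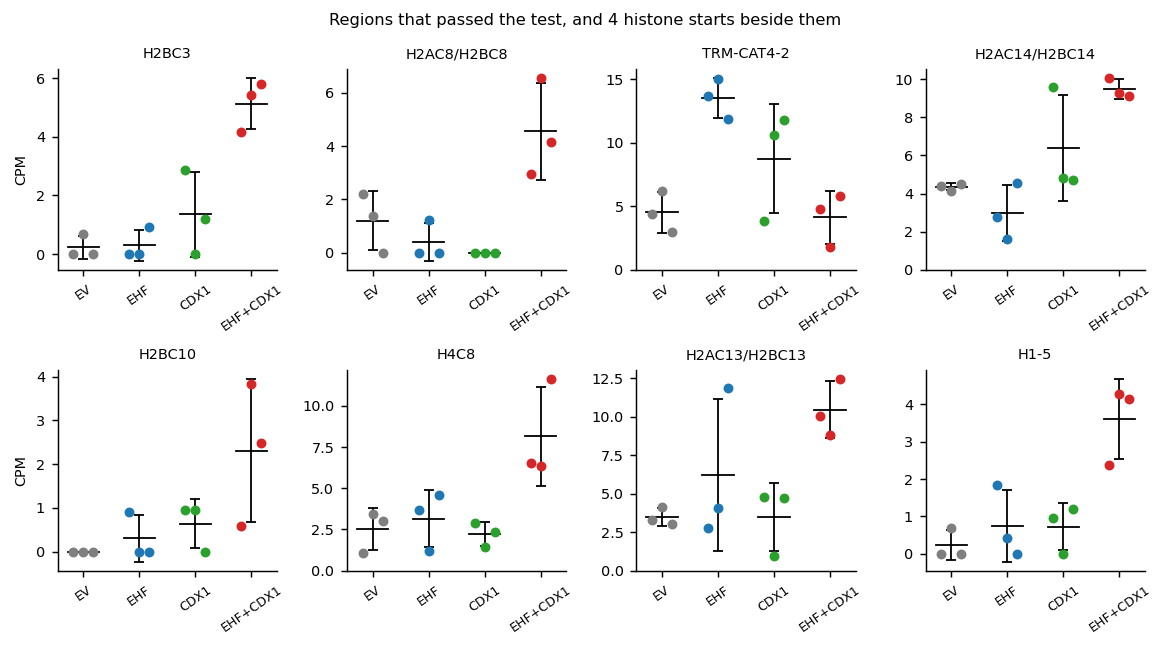
CPM per library (points) with the mean and SD over 3 libraries (lines and bars) at the 4 regions that passed a test and at 4 histone starts with small p-values or few counts. EHF+CDX1 is highest at the 7 histone starts shown, whereas TRM-CAT4-2 is highest in EHF (11.9 to 15 CPM) and low in EV and EHF+CDX1.

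By family, no histone start passed against EV. Summed over regions, with shared regions counted in each family, H2B starts went from 84.3 ± 17.4 CPM in EV to 137 ± 30.1 in EHF+CDX1, and H2A starts from 67.6 ± 15.1 to 113 ± 22. H1 starts had 7.46 ± 3.27 and 14.7 ± 4.84 CPM, H3 starts 27.3 ± 5.33 and 37.3 ± 7.58, and H4 starts 25.3 ± 4.64 and 33.2 ± 4.68. Compared with EV, 16 of 17 H2B regions, 12 of 12 H2A regions, 3 of 3 H1 regions, 3 of 5 H3 regions and 5 of 6 H4 regions had a log2 fold change above 0 in EHF+CDX1. These tallies stand beside the 57.6% of all regions and 59.8% of all start regions above 0, and the H2A and H2B tallies largely describe the same shared regions. The tallies and sums include the starts of H2BC3, H2BC10, H2AC8 with H2BC8, and H1-5. These had 3 counts or fewer in every EV, EHF and CDX1 library and reached the filter mainly in EHF+CDX1. Their values above 0 are therefore a description. H1-5 alone had 0.230 ± 0.399 CPM in EV and 3.61 ± 1.07 in EHF+CDX1. By position, the telomeric genes had 85.3 ± 12.6 CPM in EV and 113 ± 19 in EHF+CDX1, the middle group 24.3 ± 6.12 and 34.6 ± 11.2, and the centromeric group 34.1 ± 8.55 and 68.0 ± 12.

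The tRNA gene regions had another order of the groups than the histone starts. Their sums were 55.4 ± 9.43 CPM for EV, 82.3 ± 9.13 for EHF, 70.9 ± 11.6 for CDX1 and 55.7 ± 15.5 for EHF+CDX1. The 3 EHF libraries (73.1 to 91.4) lay above the 3 EV (45.1 to 63.7) and the 3 EHF+CDX1 libraries (41.5 to 72.3). The 17 other cluster regions followed the same order of group means. They had 84.6 ± 7.03 CPM for EV, 108 ± 18.5 for EHF, 95.4 ± 8.92 for CDX1 and 93.5 ± 9.40 for EHF+CDX1, with overlapping EHF and EHF+CDX1 libraries. Of the 11 tRNA regions, 2 had a stretch of at least 80 bp that matched elsewhere at 90% or more, and how reads were divided was not tested. The median log2 fold change of the 11 regions was 0.66 in EHF against EV, -0.04 in EHF+CDX1 against EV, -0.50 in EHF+CDX1 against EHF and -0.26 in EHF+CDX1 against CDX1. In the same order the other cluster regions had medians of 0.28, 0.25, -0.10 and -0.12. The tRNA medians depend on the scaling. With library totals alone they became 0.09, -0.13, -0.03 (6 of 11 below 0 in place of 9) and 0.53, and on the deposited log2 CPM the first was -0.05. At the TRM-CAT4-2 region (chr6:26743315-26743596, outside annotated genes other than the tRNA gene it overlaps) EV gave 4, 9 and 2 counts, EHF 15, 37 and 13, CDX1 4, 22 and 10, and EHF+CDX1 8, 8 and 7. The levels were 4.54 ± 1.61, 13.5 ± 1.58, 8.76 ± 4.30 and 4.12 ± 2.08 CPM. Every EHF library stood above every library of the other groups, by little above the highest CDX1 library (11.9 against 11.8 CPM). EHF+CDX1 fell by 1.92 on the log2 scale against EHF (SE 0.48, adjusted p = 0.0074), and the log2 fold change of EHF against EV was 1.49 (SE 0.51, adjusted p = 0.89). TRX-CAT1-3, another tRNA gene, had 2.19 ± 1.94 CPM in EV against 7.59 ± 1.03 in EHF (chr6:26312990-26313152), with a fitted log2 change of 1.87 ± 0.67 (SE, adjusted p = 0.89).

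The ratio of counts at histone starts to counts at tRNA genes within a library does not depend on the scaling. For EV it was 2.67, 2.08 and 3.13, for EHF 2.61, 1.64 and 2.42, for CDX1 3.05, 1.57 and 1.66, and for EHF+CDX1 3.36, 5.05 and 3.55. The 3 EHF+CDX1 libraries were above the other 9, though the lowest of them (3.36) was near the highest EV library (3.13). The histone counts include the starts of H2BC3, H2BC10 and H1-5, which reached the filter in EHF+CDX1 alone. They also include that of H2AC8 with H2BC8, which otherwise reached it only in EV. These starts add to the EHF+CDX1 ratios, and the ratio without them was not computed. Part of the small gap between 3.36 and 3.13 therefore comes from them. The classes were chosen with the values known, so no test is given for this ratio. The median GC content was 50% for the histone starts and 48.9% for the tRNA regions.

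**Figure D4:**
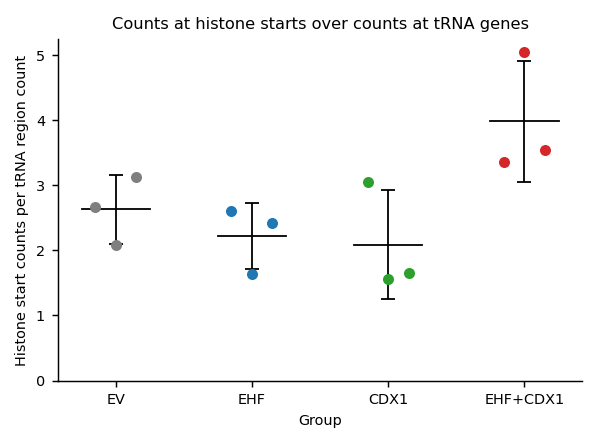
Counts at the 31 histone start regions divided by counts at the 11 tRNA gene regions, for each library (points), with the mean and SD over 3 libraries per group. The EHF+CDX1 libraries (3.36 to 5.05) lie above all other libraries, the highest of which is at 3.13. The histone counts include 4 starts with 3 counts or fewer in every EV, EHF and CDX1 library, which add to the gap.

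The interaction, which asks whether the change of EHF+CDX1 differed from the sum of the changes of EHF and CDX1 on the log2 scale, called 0 of 59 members (0.123% of all tested regions), and 6 had an unadjusted p under 0.05 (9.88% of all regions). DESeq2 called 0, with 4 at an unadjusted p under 0.05. The TRM-CAT4-2 region had the smallest p, with an interaction of -2.79 (SE 0.72, adjusted p = 0.081), and it passed without EHF+CDX1 replicate 3. Among histone starts, those of H2AC8 with H2BC8 (adjusted p = 0.19), H2BC5 (2.22, SE 0.90, adjusted p = 0.36) and H2AC12 with H2BC12 (chr6:27147417-27147567, 2.57, SE 1.37, adjusted p = 0.53) had the smallest p-values. At that H2BC5 region EHF+CDX1 had 7.29 ± 2.40 CPM, above EHF (3.35 ± 2.30) and CDX1 (2.48 ± 2.02), and its libraries did not overlap with those of CDX1.

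**Figure D5:**
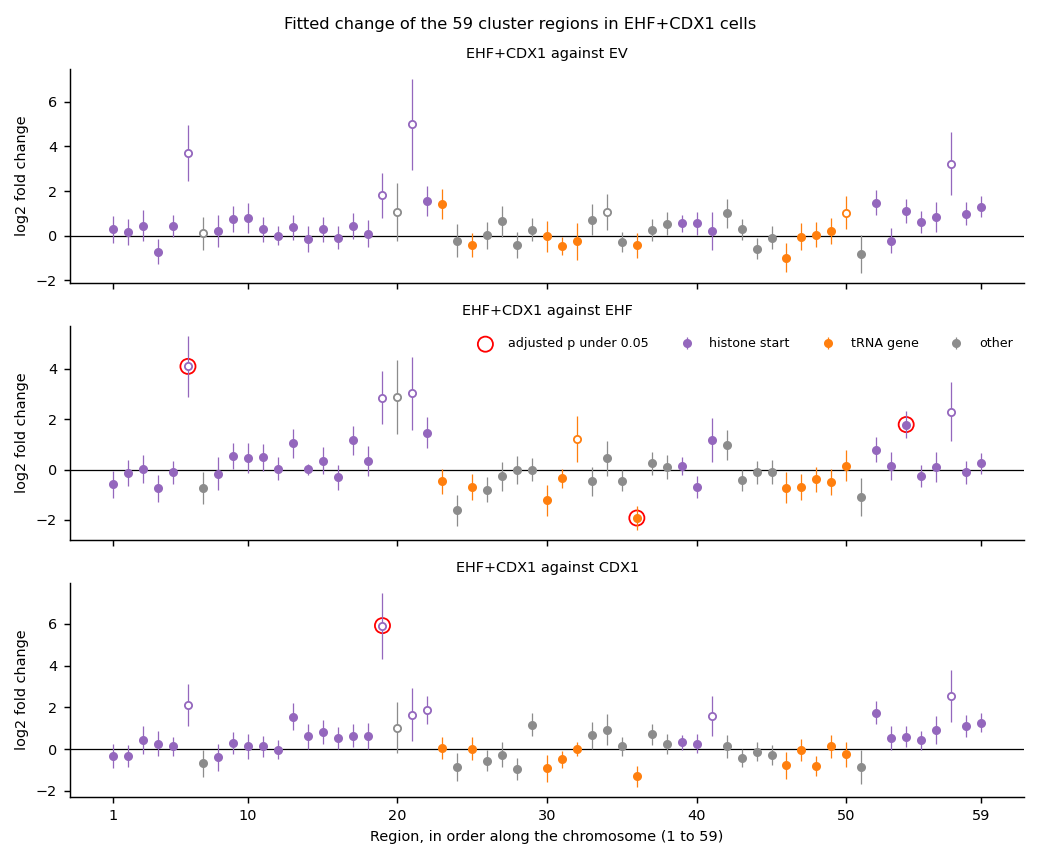
Fitted log2 fold change and SE (points and bars) of the 59 regions, in order along the chromosome, in EHF+CDX1 against EV, EHF and CDX1, coloured by class, with red rings at an adjusted p under 0.05. Open points mark regions at or under 3 counts in every library of the group compared against, whose fitted size is no measure of the fold. Histone starts lie mostly above 0 against EV (27 of 31) and tRNA genes mostly below 0 against EHF (9 of 11, and 6 of 11 with library totals alone).

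Outside the histone starts, the regions with the highest levels showed no call apart from TRM-CAT4-2. The region beside the arginine tRNA gene TRR-ACG1-2, in an annotated intron 565 bp from the start of HMGN4, had 13.9 CPM over all libraries, in the 4 groups 14.7 ± 8.21, 14.4 ± 4.93, 15 ± 3.88 and 11.7 ± 6.51 (in the order EV, EHF, CDX1, EHF+CDX1). A region near PRSS16, which encodes a thymus protease, had 9.84 CPM, one over ZNF322, a zinc finger gene, 9.31 CPM, and one over the unnamed gene ENSG00000291112 8.01 CPM. None of the 2 butyrophilin regions or the 5 zinc finger regions passed in any comparison, and the SLC17 genes of the interval had no region.

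Related genes elsewhere in the genome showed no call either. Histone genes of the other clusters had 5 regions, genes of replication-independent histones 14, genes for histone gene expression (such as NPAT) 21 and histone chaperones 16, and 0 of these passed in any of the 6 comparisons. Their median log2 fold changes in EHF+CDX1 against EV were 0.98, 0.71, 0.03 and 0.11, against 0.45 for the chromosome 6 histone starts. In the other clusters H4C16, an H4 gene on chromosome 12, had 1.56 ± 0.490 CPM in EV and 6.19 ± 1.39 in EHF+CDX1, with a fitted log2 change of 1.87 ± 0.71 (SE, adjusted p = 0.12). The start of NPAT, which encodes an activator of histone gene transcription, had 23.8 ± 8 CPM in EV and 32.9 ± 1.73 in EHF+CDX1.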

How the data were processed

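ATAC-seq was measured in 12 libraries of HCT116 lines, 3 per group. Paired-end reads were aligned by the authors with Subread 2.0.0 to hg38. They kept uniquely mapped reads, called peaks in each library with HOMER 4.7, merged them into a single set of regions and counted reads with featureCounts 2.0.0, per the methods and the submitters' processing notes. Read shifting and duplicate removal are not given in the sources used here. Duplicate reads, if kept, would make counts less precise than their number implies. The main measure was the deposited count of reads per region. The authors also deposited log2 CPM values per library, which were used as an alternative only. Groups and replicate numbers came from the sample titles, and E-C in the titles was taken to mean EHF plus CDX1, as the series' design text names that line.

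Regions with at least 3 CPM in at least 1 library were fitted with edgeR 4.0.16 (R 4.3.3, TMM factors, 1 fit over the 4 groups, robust quasi-likelihood), and p-values were adjusted by Benjamini-Hochberg over all tested regions, with 0.05 as the threshold. Starts, tRNA genes and introns came from GENCODE 44 and RefSeq, copies and mitochondrial matches from blastn 2.17.0, and the coordinates are those of the region names. The precision is set by few counts per region, and the floor of 3 counts covers counting error only. The members, the gene lists and the tRNA class were chosen with earlier results of these data known. Named regions were those that passed a test, the histone starts with the smallest p (5 in EHF+CDX1 against EV, 3 elsewhere), the 10 highest and 5 lowest histone genes, the testis-specific genes and the 5 highest other regions; TRX-CAT1-3, H4C16 and NPAT were named after their values were seen. Alternatives were other scalings, filters, DESeq2 1.42.0, limma 3.58.1 (voom, and trend on log2 CPM), a replicate block, the compared groups alone, other start windows and each library left out. The sums without the 4 lowest starts were added after seeing the data.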

Additional observations from a re-analysis of the deposited data

How the results depend on the processing

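For EHF against EV and CDX1 against EV, 0 members passed under each alternative run. In EHF+CDX1 against EV, 1 member passed with limma voom (H2BC3), with only the groups compared (H2BC3) and with the replicate block (the H2AC17, H2BC17 and H3C12 start), and 0 otherwise, including 0 to 0 with each library left out. Against EHF, 0 passed with library totals alone, DESeq2 or limma-trend on log2 CPM, and 0 to 3 with a library left out, while the 3 with limma voom were H2BC3, TRM-CAT4-2 and the H2AC8 and H2BC8 start in place of H2AC14 with H2BC14. Against CDX1, 0 passed with DESeq2 or limma-trend, 0 to 2 with a library left out, and 3 with the replicate block (the starts of H2AC13 with H2BC13, of H2AC17, H2BC17 and H3C12, and of H2AC8 with H2BC8). The interaction gave 1 member, TRM-CAT4-2, with the replicate block, and 0 to 1 with a library left out. The replicate numbers were not taken to pair the libraries, because the labels do not say that a number marks a shared batch. The Pearson correlation of deviations across regions was above 0 in 17 of 18 same-numbered pairs and over 0.1 in 5 of 18. It ran from -0.010 to 0.31 in these pairs and from -0.17 to 0.060 in other pairs. Among libraries of other groups, all 12 correlated best with a library of their own number, which is a hint that such libraries belong together. The running sample numbers in the titles also rise by replicate number, with each group in turn. What they mark is not stated. The replicate block moved the calls over all regions from 3 to 66, 0 to 6, 776 to 1711, 1311 to 1796 and 783 to 1243 in the order of the 5 comparisons, and from 37 to 134 for the interaction. The cause of these changes in calls was not tested.

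The log2 ratios of the summed histone starts moved with the scaling. With library totals alone they were -0.35 (EHF against EV), -0.72 (CDX1 against EV), 0.94 (EHF+CDX1 against EHF) and 1.30 (EHF+CDX1 against CDX1), and on the deposited log2 CPM -0.57, -1.01, 0.99 and 1.43. For EHF+CDX1 against EV the ratio stayed between 0.42 and 0.72 in all alternatives. With a library left out the ratios ranged from 0.22 to 0.60, -0.20 to 0.12, 0.44 to 0.72, -0.019 to 0.36 and 0.45 to 0.78 in the order of the 5 comparisons. Library totals alone shifted the median change over all regions to 0.65 in EHF+CDX1 against EHF and 0.82 against CDX1. Few counts per region limit what could be detected in all comparisons.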
